A study of Drosophila melanogaster with 24 samples.

Results

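The cytoplasmic ribosomal protein genes of Drosophila melanogaster were followed through 4 stages of antennal development. They were taken as every gene whose symbol begins with RpL or RpS and a digit, or with RpLP, which leaves out the mitochondrial mRp genes. Of 13409 genes with a row, 91 met this rule, 53 named for the large and 38 for the small subunit. The annotation holds 92 such genes, and RpL37-2 was not analysed here. The members lie on every major arm, with 19 on 2L, 20 on 2R, 14 on 3L, 23 on 3R, 1 on chromosome 4 and 14 on X. After the filter on low counts 88 members were tested, which left out RpS10a, RpS28a and RpL10Aa. Only 84 members had a mean level of 50 CPM or more.

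The cytoplasmic ribosome is built from a large and a small subunit, each a shell of proteins on ribosomal RNA, and most of its proteins are needed in equal number. Growing cells make ribosomes at a high rate, and their ribosomal protein mRNAs are among the most abundant messages. In flies, losing 1 copy of many of these genes gives the Minute phenotype of slow development and thin bristles, and Minute cells in an imaginal disc are removed when they lie beside wild type cells.

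PolyA RNA was sequenced from imaginal discs of wandering larvae, from antennae taken 8 h or 40 h into pupal life, and from antennae of adults. Each stage was sampled in 3 genotypes, w[1118];;+/+ (wild type), w[1118];;rn[tot]/TM6 (heterozygote) and w[1118];;rn[tot]/rn[tot] (mutant), with 2 libraries each, so that 24 libraries fell into 12 groups. All groups carry w[1118], and the heterozygote differs from wild type in its TM6 balancer chromosome as well as in its rn allele. The gene rotund (rn) codes for a transcription factor with zinc fingers, and nothing in the labels describes the lesion in rn[tot]. The labels also do not say whether the libraries of a group came from separate animals, so p-values may measure technical spread, and they call the larval tissue a disc and the later tissue an antenna, so stage and tissue cannot be told apart in the step from the larva to 8 h.

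A library held 8060181 to 15123603 gene counts. Levels below are scaled counts (CPM), that is, counts relative to the library's total after correction by trimmed means of M values. The 6 antennal marker genes, among them Orco and lush, summed to 41.7 to 64.6 CPM in the larva and to 37490 to 51980 CPM in the adult, and 6 neuronal genes summed to 90.5 to 157 and to 1648 to 1873 CPM. Germline and testis markers, 5 of 7 of which had a row, never summed above 5.44 CPM. The 6 fat body genes summed to 59.7 to 324.9 CPM in the larva and 93.5 to 378.7 CPM at 8 h, then to 42.4 to 62.8 CPM at 40 h and 0.972 to 27.8 CPM in the adult, and the 6 muscle genes ranged from 67.7 to 473.7 CPM in the larva, 70.2 to 120.6 CPM at 8 h, 179.7 to 903.9 CPM at 40 h and 110.8 to 596.3 CPM in the adult. The part of these other tissues in the results was not tested. The larval heterozygote library 1 and the 8 h wild type library 1 stood apart from all others in the ribosomal protein genes, and results that rest on them are given with and without them.

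In the larval heterozygote library 1 and the 8 h wild type library 1 most ribosomal protein mRNAs were far lower than in any other library of the stage, while a small set was higher. The members took up 11.6% of gene counts in the larval heterozygote library 1 and 16.1 to 18.7% in the other 5 larval libraries. They took up 5.46% in the 8 h wild type library 1 and 10.7 to 13.1% in the other 5 libraries at 8 h. Against the other 5 libraries of its stage, the larval heterozygote library 1 lay below all of them for 64 of 88 members, above all of them for 17 and among them for 7, beside 26.3% of all genes below and 35.2% above. The 8 h wild type library 1 lay below for 75 members, above for 11 and among them for 2, beside 31.1% of all genes below and 39.0% above. Most genes of these libraries thus lay outside the range of the other 5, more of them above it than below it, whereas most members lay below it. Both libraries lay below for the same 64 members and above for 10.

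**Figure D1:**
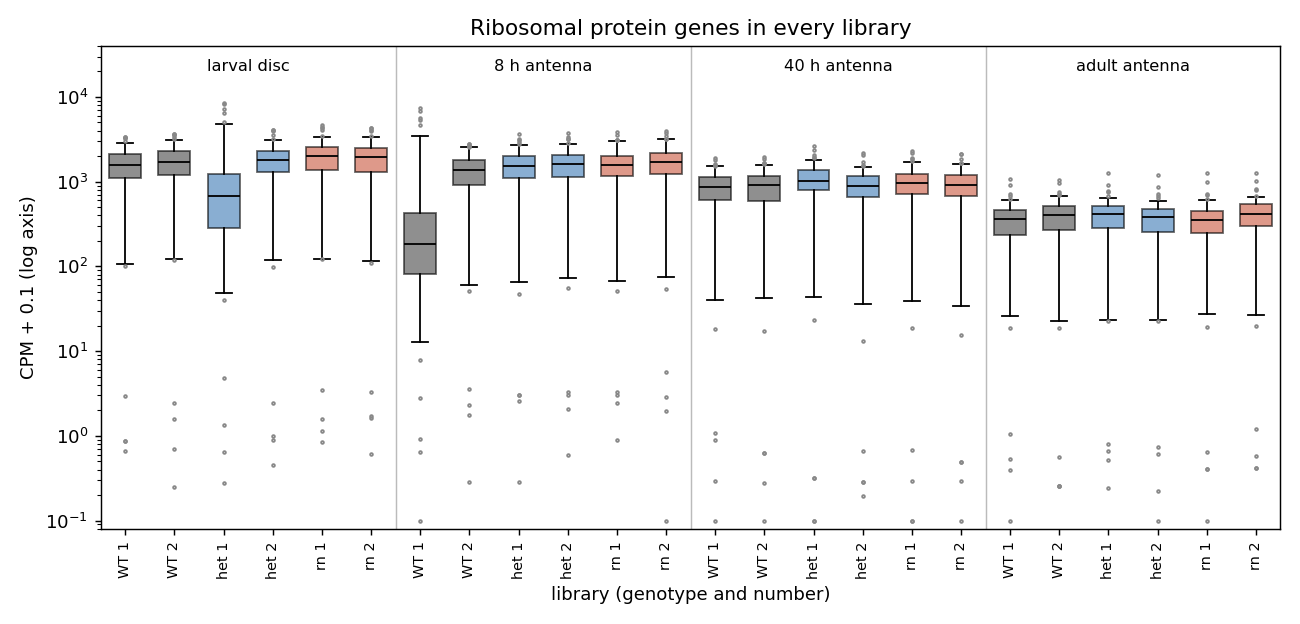
CPM plus 0.1 on a log axis for the 88 tested members in each of the 24 libraries, grouped by stage and coloured by genotype. Boxes span the quartiles with the median as a line, whiskers run from the 5th to the 95th percentile, and points are members outside them. The median is lower at each later stage, and larval heterozygote library 1 and 8 h wild type library 1 sit below the rest of their stages with wider boxes.

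The lowest members in these 2 libraries belonged to the large subunit. RpL35A (3R 5465630 to 5467101 in the BDGP6 annotation) encodes a protein of the large subunit. It stood at 40.2 CPM in the larval heterozygote library 1 and at 1147 to 1395 CPM in the other larval libraries. At 8 h it stood at 12.8 CPM in wild type library 1 and at 899.9 to 1081 CPM in the others. Against the partner library of the same group, RpL35A differed by -4.91 on the log2 scale in the larva and by -6.08 at 8 h, with 0.5 CPM added before taking logs.

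RpL8 (3L 2587456 to 2588883), which lies next to the peptidyl transferase centre, was at 95.4 against 2115 to 2611 CPM in the larva and at 28.7 against 1819 to 2173 CPM at 8 h. RpL13A was at 95.6 against 1683 to 2021 CPM and at 25.3 against 1426 to 1700 CPM. RpL34b was at 123 against 1158 to 1419 CPM and at 16.1 against 953.2 to 1193 CPM. For each of these members the 5 other libraries of the stage lay close together, far above the low one.

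At the other end, RpL38 was at 4327 CPM in the larval heterozygote library 1 against 1896 to 2152 CPM in the other larval libraries. It was at 4667 CPM in the 8 h wild type library 1 against 1617 to 2209 CPM in the others. RpL5, which carries the 5S ribosomal RNA into the large subunit, was at 7143 against 3313 to 4026 CPM and at 5283 against 2754 to 3782 CPM. RpL10, RpL15, RpL21, RpL39, RpL41 and RpS3A, a small subunit protein, were also above every other library of the stage in both libraries. RpL37A was the member that lay among the other libraries at both stages, at 1358 and at 936.6 CPM.

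Over the 88 members the difference between library 1 and library 2 had a median of -1.20 (SD 1.36, from -4.91 to 1.16) in the larval heterozygote and of -2.53 (SD 1.88, from -6.08 to 2.24) in the 8 h wild type. In the other 10 groups the median ran from -0.21 to 0.24 and the SD from 0.08 to 0.21. The pattern over members was much alike in the 2 libraries, with Pearson's r of 0.91 and Spearman's rho of 0.92 over 88 members. The same comparison of the 8 h wild type pair with the other 10 pairs gave r from -0.26 to 0.29. These are descriptions across genes, which share the depth and scaling of each library.

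By median the subunits lay close together. The median difference was -1.16 over 52 large and -1.25 over 36 small subunit members in the larval heterozygote, and -2.50 and -2.56 in the 8 h wild type. The summed counts, which weigh abundant members more, shifted towards the large subunit, as given below. The rank correlation with transcript length was 0.02 and 0.04 over 88 members. The 3 tested members over 1500 nt went separate ways, with RpL3, a protein of the large subunit's core, at -2.04 and -3.92, RpL5 at 0.99 and 0.94, and RpL7-like at 0.34 and -0.14. Among other genes of 50 CPM or more the median at 8 h ran from -0.58 for lengths of 600 to 1000 nt to 0.39 for those over 2500 nt, and the part of length was not tested. Transcripts of 1 gene share reads, and how closely they moved together differed by gene. The 8 annotated transcripts of RpL15 were higher by 0.93 to 1.19 in the larva and by 1.02 to 1.19 at 8 h. The counted transcript of RpL7A was at -0.15 and -0.66, and another of its transcripts at -2.03 and -3.43. At 8 h the counted transcript of RpS15Aa was at -0.85 and another at 0.14, so the transcript counted can alter a member's value here.

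Low levels in these 2 libraries were not limited to ribosomal protein genes. Among 3898 genes with a mean of 50 CPM or more, 69 lay below -2 in the larval heterozygote pair and 20 of them were members, and 239 lay below -2 in the 8 h wild type pair, of which 54 were members. The median of the 3814 other genes was 0.14 and 0.20, against -1.28 and -2.53 for the 84 members among them. Over those other genes r between the 2 pairs was 0.76. Rack1, which encodes a scaffold protein of the small subunit, was at 565.5 against 2513 CPM and at 92.6 against 1600 CPM, whereas the translation factors had medians of 0.12 and -0.48 and the mitochondrial ribosomal proteins of -0.14 and -1.03. Mitochondrially encoded genes took up 3.06% of counts against 1.51% in the larval pair and 3.82% against 1.47% at 8 h, and their part in the pattern was not tested.

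**Figure D2:**
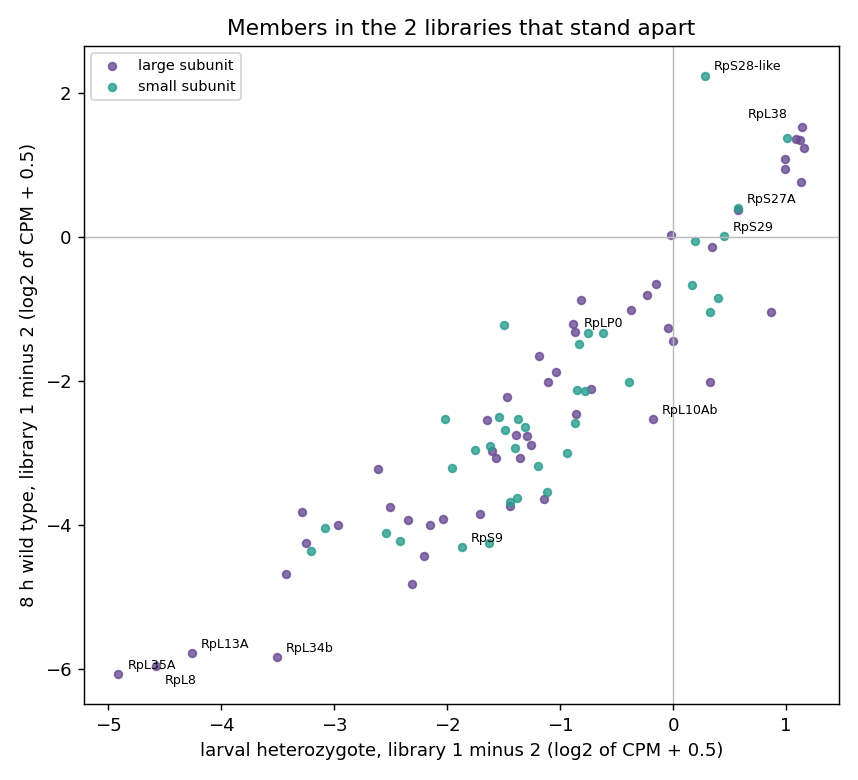
Each point is 1 of 88 tested members, with library 1 minus library 2 (log2 of CPM plus 0.5) in the larval heterozygote on the x axis and in the 8 h wild type on the y axis, coloured by subunit. Members fall along a broad diagonal from RpL35A at -4.91 and -6.08 to RpL38 at 1.14 and 1.53.

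Ribosomal protein mRNA made up a large share of the larval disc transcriptome and a small share of the adult antenna. The members took up 16.7 ± 2.65% of gene counts in the larva (SD, n = 6 libraries), 11 ± 2.83% at 8 h, 7.41 ± 0.361% at 40 h and 3.44 ± 0.264% in the adult. Without the 2 libraries that stand apart the share was 17.7 ± 1.05% in the larva and 12.1 ± 0.902% at 8 h (n = 5 each). The ranges without them, 16.1 to 18.7%, 10.7 to 13.1%, 6.98 to 7.88% and 3.15 to 3.88%, did not overlap between any 2 stages. Fewer cells with high expression, less of this RNA per cell and a rise of other transcripts cannot be told apart in such shares from bulk samples.

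The balance between the subunits stayed nearly level over the 22 other libraries. The summed counts of large subunit members were 1.44 to 1.55 times those of the small subunit. They were 1.77 times in the larval heterozygote library 1 and 1.98 times in the 8 h wild type library 1.

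Per kilobase of the transcript counted, the most abundant member was RpL41, whose product is the shortest ribosomal protein, with a mean of 8196 CPM per kb over 24 libraries. RpL39, another very short protein of the large subunit, followed at 4199, then RpS27A, which is made as a fusion to ubiquitin, at 3653, the stalk protein RpLP1 at 3000 and RpL21 at 2722 CPM per kb. The order below RpL41 shifted with stage when the 2 libraries were left out. In the larva RpS27A, at 5501 CPM per kb, came next after RpL41 at 12350, and RpL39 followed at 5234. In the adult RpL41 and RpS25, a small subunit protein, were almost level at 1259 and 1244 CPM per kb, before RpL39 at 1165, RpL23 at 1146 and RpL21 at 1137. RpS27A overlaps Ip259 on the same strand, and the strand setting of the counting is not given. At the other end RpL22-like, RpS5b, RpS19b and RpS28-like held 1.19 to 1.41 CPM per kb, and RpS28a, RpS10a and RpL10Aa held 0.342, 0.258 and 0.0387 CPM per kb.

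From the larval disc to the 8 h antenna the members were lower as a group by a small amount. With all 24 libraries 12 of 88 fell and 1 rose, against 24.7% of all 10993 genes that fell and 23.8% that rose (edgeR, adjusted p under 0.05). The median log2 change was -0.32 over the members and -0.08 over all genes tested. Without the 2 libraries 60 of 89 tested members fell and 1 rose, against 31.2% and 24.8% of 11280 genes, with medians of -0.26 and -0.09. In that fit the 8 h wild type and the larval heterozygote have 1 library each, which is assumed to vary as the other groups do. Every 8 h library lay below every larval one for 5 of 88 members with all libraries and for 26 without the 2, against 12.4% and 24.5% of all genes.

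From 8 h to 40 h all 88 tested members had a log2 change below 0 with all libraries. How many were called depended on the 8 h wild type library 1. That library stood apart by low levels of most members, so leaving it out raises their 8 h level by construction. The counts without it are therefore no independent support for a decline. With all libraries 31 of 88 fell and none rose, against 34.9% of all genes that fell and 34.8% that rose, with a median of -0.52 against -0.02. Without the 2 libraries 87 of 89 fell, against 38.2% of all genes that fell and 37.1% that rose, with a median of -0.73 against 0.00. The groups did not overlap for 16 members with all libraries (22.6% of all genes) and for 86 without the 2 (31.3%). Only RpS28-like and RpS10a, at under 3 CPM in every library, did not pass in the latter fit.

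From 40 h to the adult antenna the members fell most. With all libraries 74 of 88 fell and none rose, against 34.5% of all genes that fell and 37.8% that rose, and the median of -1.24 stood beside 0.04 for all genes. Every adult library lay below every 40 h library for 82 of 88 members, against 30.0% of all genes. In the fit without the 2 earlier libraries, 82 of 89 fell, against 38.0% of all genes that fell and 40.5% that rose. RpL35A, at 511.8 to 651.8 CPM at 40 h and 277.9 to 323.3 CPM in the adult, had the same estimate in both fits but different errors, -0.87 ± 0.66 (adjusted p = 0.248) with all libraries and -0.87 ± 0.07 (adjusted p = 7.66e-09) without the 2. RpL8 likewise had -1.38 ± 0.65 (adjusted p = 0.0684) and -1.38 ± 0.07 (adjusted p = 5.38e-11). Mitochondrially encoded genes took up 4.55 to 7.43% of adult counts and 1.28 to 1.88% at 40 h, and their part in the change was not tested.

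**Figure D3:**
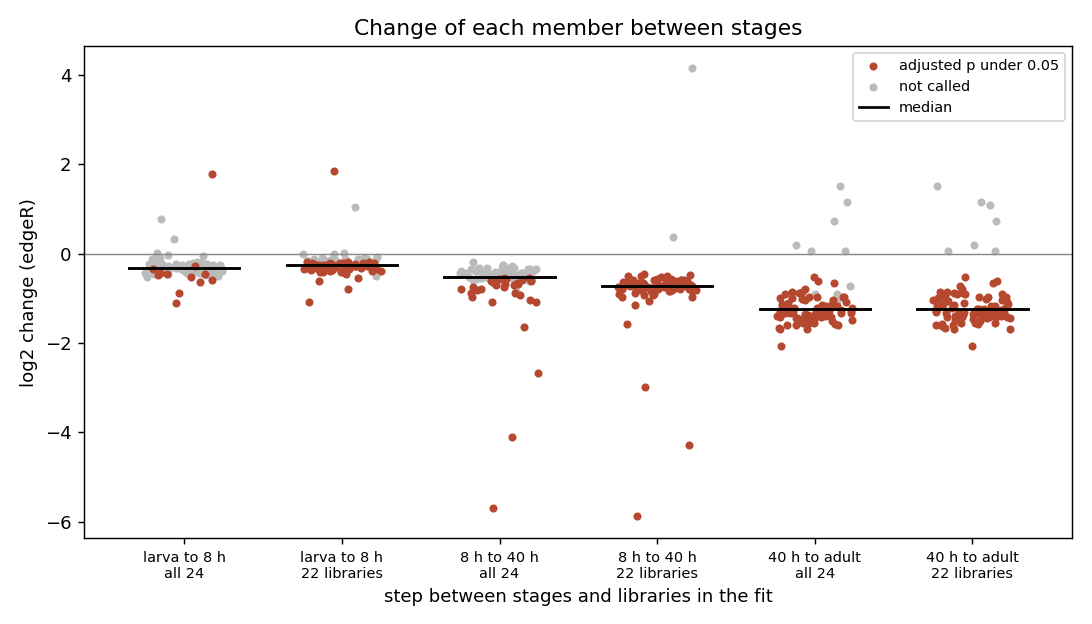
Log2 change of each tested member at each step between stages, from the fit to all 24 libraries and from the fit without larval heterozygote library 1 and 8 h wild type library 1. Red points have an adjusted p under 0.05, grey points do not, and black lines are medians. The median is -0.32 and -0.26 at the first step, -0.52 and -0.73 at the next and -1.24 at the last.

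Each step takes the mean of the 3 genotypes, and neighbouring steps share the libraries of the stage between them. The members' median relative to all genes was -0.24, -0.50 and -1.28 at the 3 steps with trimmed means and -0.25, -0.48 and -1.28 with total counts. Total-count scaling shifted the median of all genes by -0.31 at the first step and by 0.14 at the last.

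The stalk proteins, which recruit translation factors to the large subunit, followed the group with some spread. RpLP0, the stalk base, had a lowest, median and highest level of 1476, 2620 and 2732 CPM among larval libraries, and of 669.8, 1802 and 1965 CPM among those taken at 8 h. At 40 h these were 829.3, 905.3 and 1071 CPM, falling to 448.1, 531.8 and 585.9 CPM in adults. Apart from the 8 h wild type library 1, every 8 h library lay above every 40 h library, and every 40 h library above every adult one. RpLP0 changed by -0.59 ± 0.19 (SE, adjusted p = 0.0179), -0.79 ± 0.19 (adjusted p = 0.00162) and -0.80 ± 0.19 (adjusted p = 0.00144) at the 3 steps in edgeR. RpLP2, the partner of RpLP1 in the stalk, changed by -1.61 ± 0.32 (adjusted p = 0.000253) at the last step, where RpLP1 changed by -1.32 ± 0.24 (adjusted p = 0.000116).

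Both genes that fuse ubiquitin to a ribosomal protein fell in the antenna. RpS27A changed by -0.87 ± 0.13 (adjusted p = 1.43e-05) from 8 h to 40 h and by -1.56 ± 0.13 (adjusted p = 1.42e-08) from 40 h to the adult. RpL40 ranged from 763.8 to 999.4 CPM at 40 h and from 359.7 to 448.3 CPM in the adult, with changes of -0.59 ± 0.17 (adjusted p = 0.00543) and -1.12 ± 0.17 (adjusted p = 2.01e-05). Neither passed from the larva to 8 h (adjusted p = 0.147 and 0.133).

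RpL41 had the steepest decline among abundant members. Its lowest, median and highest levels were 3348, 4181 and 8510 CPM among larval libraries and 2623, 3139 and 6733 CPM among those taken at 8 h. They were 1448, 1661 and 2059 CPM at 40 h, then 354.9, 406.4 and 446.3 CPM in adults. The highest larval and 8 h values came from the 2 libraries that stand apart, and the 40 h and adult groups lay far from each other. RpL41 changed by -1.09 ± 0.21 (adjusted p = 0.000245) and -2.08 ± 0.22 (adjusted p = 2.51e-07) at the last 2 steps, and its larval mean without the larval heterozygote library 1 was 9.80 times its adult mean.

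The next largest declines into the adult were those of RpS9, a small subunit protein, and RpS23, which sits at the decoding centre. RpS9 was at 875.3 to 1049 CPM at 40 h and at 268.8 to 331.5 CPM in the adult (-1.69 ± 0.45, adjusted p = 0.00279), and RpS23 was at 1445 to 1782 and at 447.6 to 546.6 CPM (-1.69 ± 0.35, adjusted p = 0.000345). The groups did not overlap for either gene. Among abundant members, the ratio of larval to adult mean ran from 3.18 for RpL21 and 3.33 for RpS3A to 7.11 for RpS9 and 9.80 for RpL41.

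Among members named after a ribosomal protein, RpLP0-like and RpL24-like were not called lower at the last step, whereas RpL7-like fell at every step. RpLP0-like, RpL7-like and RpL24-like are relatives of RpLP0, RpL7 and RpL24, and their yeast counterparts act in assembly of the large subunit in the nucleolus and are not part of the finished ribosome. All 3 fell from the larva to 8 h, and they were the 3 largest decreases of that step. Per kilobase, RpL7-like and RpLP0-like made up medians of 2.48 to 3.94% and 2.62 to 5.95% of the pair with their namesake, and RpL24-like 12.7 to 26.1%.

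RpLP0-like (2R 10098518 to 10099590) had a lowest, median and highest level of 98.3, 115.9 and 146.3 CPM among larval libraries and 47.5, 52.9 and 66.9 CPM among those taken at 8 h. At 40 h they were 13, 17.7 and 23.4 CPM, compared with 18.5, 19.4 and 22.8 CPM in adults. Each stage up to 40 h lay wholly below the one before it, and the adult and 40 h ranges overlapped. RpLP0-like changed by -1.11 ± 0.13 (adjusted p = 2.72e-06), -1.63 ± 0.14 (adjusted p = 1.54e-08) and 0.19 ± 0.14 (adjusted p = 0.227) in edgeR. RpLP0 itself fell at the last step.

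RpL7-like (2L 12056326 to 12058251) ranged from 101.2 to 148.4 CPM among larval libraries and from 55.3 to 74.6 CPM at 8 h, then from 33.9 to 43.6 CPM at 40 h and from 22.8 to 27.0 CPM in adults. No 2 neighbouring stages overlapped, with changes of -0.87 ± 0.09 (adjusted p = 3.09e-07), -0.75 ± 0.09 (adjusted p = 8.98e-07) and -0.66 ± 0.09 (adjusted p = 4.98e-06). It overlaps CG34164 on the same strand, whose reads may be among its counts. RpL24-like changed by -0.64 ± 0.17 (adjusted p = 0.00425) at the first step and by 0.06 ± 0.17 (adjusted p = 0.778) at the last, where it ranged from 74.6 to 92.2 CPM at 40 h and from 73.5 to 92.8 CPM in the adult.

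Paralogues known for expression in the germline were close to the floor of the data. Measured per kilobase, RpS5b made up at most 0.217% of RpS5a and RpS5b together, RpS19b at most 0.946% of its pair and RpL22-like at most 0.262% of its pair in any library. RpS10b, RpS28b and RpL10Ab made up at least 99.6% of their pairs with RpS10a, RpS28a and RpL10Aa in every library.

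RpS19b (3R 23932729 to 23933530) had a lowest, median and highest level of 0.757, 1.37 and 1.52 CPM in larval libraries and of 0.546, 2.65 and 3.17 CPM at 8 h. It had 3 counts in all 6 libraries at 40 h and 10 in the 6 adult libraries. RpL22-like had 146 counts over the 8 h libraries and 8 over those at 40 h. Both fell from 8 h to 40 h, with log2 changes of -4.10 ± 0.54 for RpL22-like (adjusted p = 3e-06) and -5.68 ± 0.85 for RpS19b (adjusted p = 1.89e-05), the latter a fitted value that depends on the few counts at 40 h.

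RpS5b was the only member that rose at any step in edgeR. It was at 0.179, 0.780 and 1.61 CPM in the larva and at 0, 2.67 and 5.59 CPM at 8 h, where the 0 came from the wild type library 1 and every other 8 h library lay above every larval one. The change was 1.77 ± 0.59 (adjusted p = 0.0202) into the 8 h antenna and -2.68 ± 0.65 (adjusted p = 0.00145) from there to 40 h. Without 8 h wild type library 2 the estimate was -0.70, since that group then held only the library at 0, and without library 1 and the larval heterozygote library 1 it was 1.85 ± 0.44 (adjusted p = 0.00231).

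In the following pairs both copies lay well above the floor, and the median share moved less between stages for RpS14b than for RpS15Ab. RpS14a and RpS14b are neighbours on X (7933742 to 7934677 and 7934898 to 7935792) with nearly identical sequences, so that reads may be assigned to either. RpS14b made up a median of 40.9, 40.6, 41.5 and 43.7% of the pair at the 4 stages. RpL34b made up 74.5, 76.7, 79.0 and 74.9% of its pair. RpS15Ab made up 25.1, 23.1, 19.4 and 26.2% of its pair with RpS15Aa. In the adult its share ran from 20.6 to 30.3% over the libraries. RpL24-like, which is not a copy of RpL24, had a median share with it of 12.8% at 40 h and 26.1% in the adult.

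**Figure D4:**
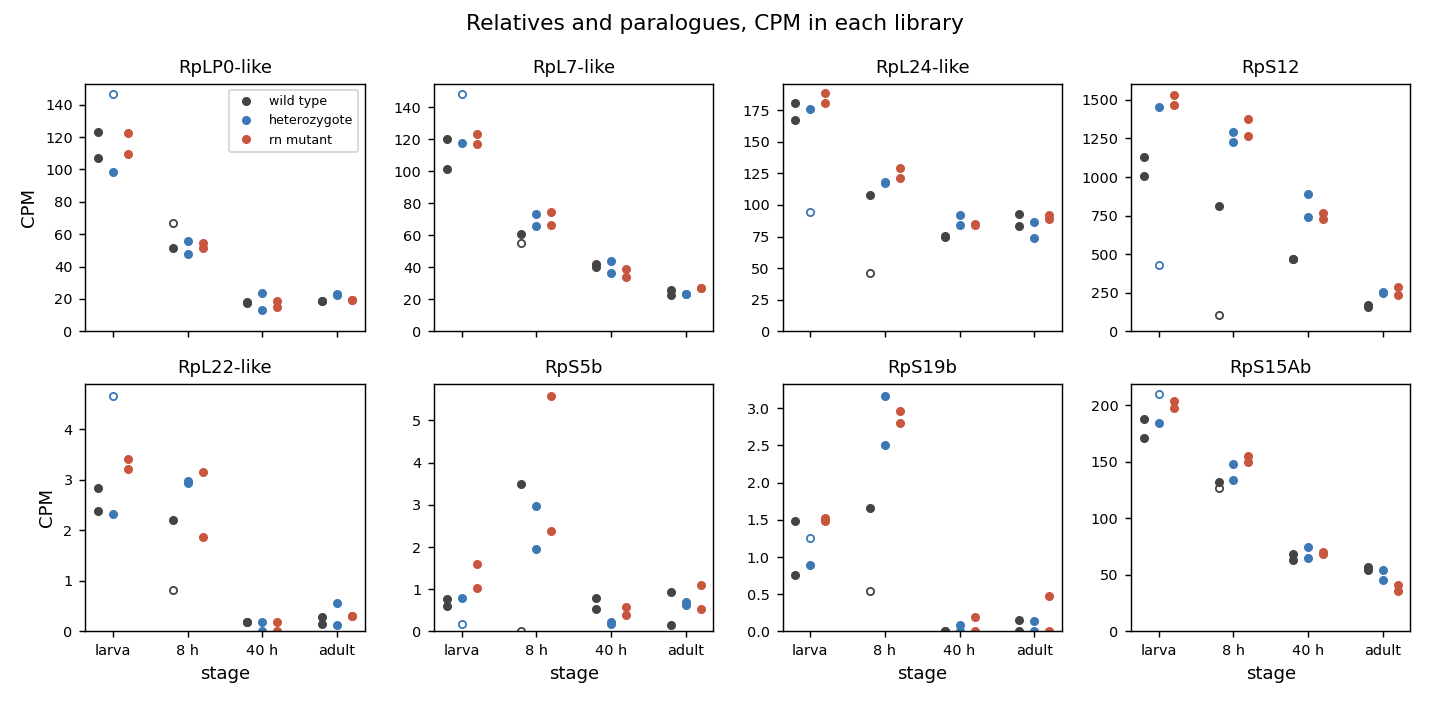
CPM in each library for 8 members, by stage on the x axis and coloured by genotype, on linear axes from 0. Open circles are larval heterozygote library 1 and 8 h wild type library 1. RpLP0-like and RpL24-like level off after 40 h, RpL22-like and RpS19b drop to near 0 at 40 h, and RpS12 lies lower in wild type than in the other genotypes among filled circles at every stage.

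The genotype comparisons set the rn[tot] genotypes against wild type and against each other, and with all libraries almost no member passed. In comparisons with wild type, the rn allele and the rest of the stock cannot be told apart. In edgeR no member was called in 11 of the 12 comparisons within a stage. For mutant against wild type, 0 of 88 members passed in the larva (1.54% of all genes), 0 at 8 h (3.36%), 0 at 40 h (1.29%) and 1 in the adult (3.08%). For the heterozygote against wild type the members' count was 0 at each stage, beside 1.86, 3.94, 1.02 and 1.82% of all genes from larva to adult. Between mutant and heterozygote it was 0 as well, beside 0.164, 0.091, 0.0819 and 0.291%. Since 1 fit covers all groups, the 2 libraries that stand apart also enter the errors of comparisons that use neither. For mutant against wild type at 40 h the SE of RpS12 was 0.595 in this fit and 0.119 without them. Counts of 0 therefore do not show that the members were unchanged.

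At 8 h 24 of 88 members had an unadjusted p under 0.05 for the mutant against wild type, beside 25.1% of all genes, and 12 had one for the heterozygote, beside 25.6%. DESeq2 called 6 and 4 members higher there (2.66% and 3.17% of all genes). In the larva the number was 1 for the mutant (8.9% of all genes) and 7 for the heterozygote against wild type (12.7%), and 0 between mutant and heterozygote (6.32%). Between mutant and heterozygote at 8 h it was 0 (4.47%), and at 40 h it was 0 in each comparison (3.4 to 7.4%). In the adult it was 1 for the mutant against wild type (12.2%), 1 for the mutant against the heterozygote (4.49%) and 0 for the heterozygote against wild type (8.91%). None of the numbers of members with an unadjusted p under 0.05 was far above the share among all genes. The DESeq2 calls at 8 h, 6.8% of members for the mutant and 4.5% for the heterozygote, were above it. Both of those comparisons use the 8 h wild type library 1. DESeq2 called 1 member in the adult mutant against wild type and 0 in each of the comparisons not named here.

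The medians at the first 2 stages moved with the libraries that stand apart. At 8 h the median log2 difference over members was 1.0 for the mutant and 0.93 for the heterozygote against wild type, and 0.26 and 0.18 without the 2 libraries. In the larva it was 0.58 for the mutant against the heterozygote and -0.35 for the heterozygote against wild type, and 0.10 and 0.09 without them. The median over all genes lay between -0.06 and 0.01 in these comparisons, and those that share a control group are not independent.

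Mutant and wild type larval libraries do not include either library that stands apart, and there the members were slightly higher in the mutant. The median was 0.22, with 85 of 88 members above 0, against 0.00 over all genes. No member passed with all libraries, 4 of 89 did in the fit without the 2 libraries (1.71% of all genes were higher), and 40 of 87 did in a fit of these 4 larval libraries alone (5.19% of all genes). The 4 were RpL13, RpS12, RpS20 and RpS3A. RpL13 was at 1617 and 1715 CPM in wild type and at 2407 and 2308 CPM in the mutant (0.50 ± 0.11, adjusted p = 0.0148 in edgeR), and RpS3A at 3329 and 3342 against 4608 and 4309 CPM (0.42 ± 0.11, adjusted p = 0.0481). The heterozygote library 2 lay between them for both genes, at 2055 and 4068 CPM.

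**Figure D5:**
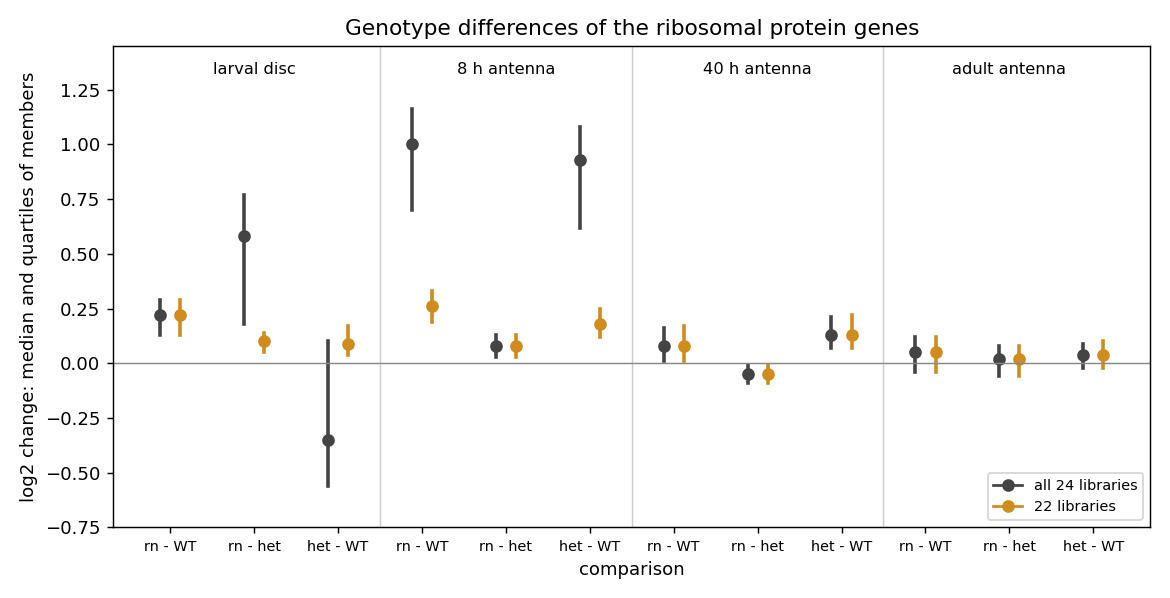
Median (point) and quartiles (bar) of the log2 difference over the tested members in each genotype comparison at each stage, with all 24 libraries (grey) and without larval heterozygote library 1 and 8 h wild type library 1 (orange). Grey medians of 1.0 and 0.93 against wild type at 8 h become 0.26 and 0.18.

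RpS12 was higher in the mutant than in wild type at every stage once the 2 libraries were left out. RpS12 (3L 13023352 to 13024762) is a small subunit protein that in Drosophila is known for its part in the competition between Minute and wild type cells. It was singled out here after its values were seen. At 40 h it was at 468.9 and 469.0 CPM in wild type, 891.9 and 741.8 CPM in the heterozygote and 764.1 and 728.3 CPM in the mutant. In the adult it was at 155.6 and 169.2, 254.3 and 246.3, and 236.7 and 288.2 CPM in the same order. Both wild type libraries lay below the other 4 at each of these stages, and heterozygote and mutant overlapped at both.

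Among the remaining larval libraries RpS12 was at 1010 and 1133 CPM in wild type, 1455 CPM in the heterozygote and 1467 and 1534 CPM in the mutant. At 8 h it was at 809.5 CPM in the remaining wild type library and at 1227 to 1375 CPM in the others. The libraries left out held 431.2 CPM in the larval heterozygote and 103.5 CPM in the 8 h wild type. In each stage the wild type values were thus the lowest of the libraries kept.

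With all 24 libraries no RpS12 difference passed, and the change of the mutant against wild type at 40 h was 0.67 ± 0.60 (adjusted p = 1). Without the 2 libraries the mutant was higher than wild type by 0.49 ± 0.12 in the larva (adjusted p = 0.0337), 0.70 ± 0.15 at 8 h (adjusted p = 0.0214), 0.67 ± 0.12 at 40 h (adjusted p = 0.00445) and 0.69 ± 0.12 in the adult (adjusted p = 0.00185). Against the same wild type libraries the heterozygote was higher by 0.44 ± 0.14 (adjusted p = 0.176), 0.64 ± 0.15 (adjusted p = 0.0373), 0.80 ± 0.12 (adjusted p = 0.00119) and 0.62 ± 0.12 (adjusted p = 0.00564). Beside these calls stand 0.984, 1.68 and 4.75% of all genes higher in the mutant at 8 h, at 40 h and in the adult, and 0.984, 1.6 and 3.23% higher in the heterozygote. Mutant against heterozygote did not pass for RpS12 at any stage, with differences of 0.05 ± 0.14, 0.07 ± 0.12, -0.13 ± 0.12 and 0.07 ± 0.12.

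When only the libraries of a comparison were fitted, the estimates for RpS12 were close to these where neither of the 2 libraries took part. There the mutant differed from wild type by 0.48 ± 0.07 in the larva (adjusted p = 0.00151), 0.67 ± 0.07 at 40 h (adjusted p = 0.00023) and 0.71 ± 0.12 in the adult (adjusted p = 0.0183). The heterozygote differed by 0.80 ± 0.14 at 40 h (adjusted p = 0.112) and 0.63 ± 0.09 in the adult (adjusted p = 0.00223). Where 1 of the 2 libraries took part none passed: at 8 h the mutant differed by 1.56 ± 1.02 (adjusted p = 0.726) and the heterozygote by 1.48 ± 0.996 (adjusted p = 0.774), and in the larva the heterozygote differed by -0.20 ± 0.61 (adjusted p = 0.912), with the sign turned.

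Besides RpS12 the wild type libraries kept were the lowest of all 4 stages for RpL36, RpL36A, RpL40, RpS3A, RpS19a and RpS27. These 7 of 88 members stood beside 1.46% of all genes. By stage the number was 59 in the larva (16.5% of all genes), 77 at 8 h with 1 wild type library (21.3%), 31 at 40 h (11.8%) and 11 in the adult (15.2%).

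In edgeR the only member that passed in a genotype comparison with all libraries was RpS15Ab (2R 10821676 to 10822399), a copy of the small subunit gene RpS15Aa. It passed in the adult mutant against wild type (1.17% of all genes were lower). Its level was 57.0 and 54.0 CPM in wild type, 54.2 and 45.4 CPM in the heterozygote and 40.9 and 35.6 CPM in the mutant. Both mutant libraries lay below the other 4, by -0.54 ± 0.14 against wild type (adjusted p = 0.0408 in edgeR). RpS15Aa was at 121.9 and 137.8, 130.1 and 125.6, and 110.2 and 127.4 CPM, with overlapping groups. The RpS15Ab call did not pass with any 1 of the 4 wild type and mutant libraries left out, the change then ranging from -0.64 to -0.44, nor without the filter (-0.52), nor in a fit of only those 4 libraries (-0.52), where RpS12 was the member called, and it passed without the 2 earlier libraries (adjusted p = 0.00588).

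Whether the stage steps differed between mutant and wild type was tested as an interaction. No member passed at any of the 3 steps in edgeR or DESeq2, beside 0.282, 0.391 and 0.746% of all genes in edgeR, and 0, 0 and 1 members had an unadjusted p under 0.05 in edgeR, beside 9.65, 11 and 7.47% of all genes. The median interaction was 0.79 at the first step and -0.93 at the next with all libraries, and 0.05 and -0.17 without the 2. At the last step it was -0.04 in both fits.

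Other genes of the translation machinery were compared at the same steps. Of 34 translation factors, 19, 24 and 27 fell and 1, 3 and 0 rose at the 3 steps, with medians of -0.44, -0.59 and -0.56, where 24.7, 34.9 and 34.5% of all genes fell and 23.8, 34.8 and 37.8% rose. Without the 2 libraries the medians of the translation factors were -0.33, -0.58 and -0.56. eEF1alpha1, the main elongation factor that delivers tRNA, went from a mean of 15830 CPM in the larva to 11170, 5983 and 1973 CPM. eEF1alpha2, another gene for the same factor, rose from 4.10 to 86.4 CPM and then 810.9 CPM (4.40 ± 0.14, adjusted p = 3.16e-13 and 3.24 ± 0.13, adjusted p = 1.01e-12).

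Of 19 ribosome biogenesis factors, 18, 19 and 13 fell, with medians of -1.02, -1.32 and -0.68, and 19, 19 and 13 fell without the 2 libraries, against the same shares of all genes as above (31.2, 38.2 and 38.0% without the 2). Fib, which encodes the nucleolar methyltransferase fibrillarin, went from a mean of 156.6 CPM in the larva to 60.7, 17.5 and 7.68 CPM. These means include the 2 libraries that stand apart, where Fib was low. It was at 32.1 against 164.4 to 192.1 CPM in the other larval libraries and at 7.38 against 68.1 to 76.1 CPM at 8 h. The largest medians of the biogenesis factors thus came at the first 2 steps, and that of the ribosomal protein genes came at the last. Nmd3, an export factor of the large subunit, was the 1 biogenesis factor that rose with all libraries, from 20.3 to 32.9 CPM into the adult (0.70 ± 0.13, adjusted p = 0.000195).

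The mitochondrial ribosomal proteins moved against the cytoplasmic ones at the last step. Of 73, 50 and 40 fell and 0 and 1 rose at the first 2 steps, with medians of -0.55 and -0.46. Among all genes 24.7 and 34.9% fell and 23.8 and 34.8% rose at these steps. Without the 2 libraries the medians were -0.46 and -0.59. From 40 h to the adult 47 rose and none fell (37.8% and 34.5% of all genes), with a median of 0.65 against -1.24 for the cytoplasmic members. Their summed level went from 1307 to 1572 CPM at 40 h to 2186 to 2522 CPM in the adult. Without the 2 libraries 58 rose and 5 fell at that step (40.5% and 38.0% of all genes), and the difference between the groups of genes was not tested.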

How the data were processed

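The authors deposited raw counts for 29872 FlyBase transcripts in 24 libraries, made with a stranded mRNA protocol per the labels. CASAVA 1.8, BWA 0.7.12 and DESeq2 are named as tools per the submitters' processing notes. No source used here gives the genome build, the counter, or its settings for strand and multi-mapping reads, so paralogues can share reads, and 25 members overlap another protein-coding gene, 3 of them on the same strand. Of the transcripts 29393 matched the Ensembl BDGP6 annotation (98.69% of counts). A table of genes had been assumed, and each gene was represented by the transcript with most counts over all libraries, and these hold 45.5% of the counts. Transcripts of a gene share reads. Of counts from 1 to 10, 78.5% were even, so counts may not be independent molecules, and no counting intervals were made. The normalized table that was also deposited was not used.

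Testing was done by edgeR 4.0.16 under R 4.3.3 (TMM, filterByExpr with a minimum count of 10, quasi-likelihood F test, Benjamini-Hochberg at 0.05, 2-sided) in 1 fit of 12 groups over 24 libraries. It tested 10993 genes with 12 residual degrees of freedom and a common dispersion of 0.0521. DESeq2 1.42.0 was an alternative. On simulated counts for mutant against wild type in the adult (10437 genes), 30 of 100 genes changed 2-fold and 98 of 100 changed 4-fold were recovered, with 5 false calls. The simulation gave every gene the common dispersion and held no library that stands apart. Its rates therefore do not carry over to members with large errors, such as RpL35A, with an SE of 1.137 in this comparison of the real data.

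The members and lists were chosen with earlier results of these data known. Named members were the 5 with the highest and lowest CPM per kb, paralogue pairs, stalk and ubiquitin fusion genes, RpL35A and RpL8, the 3 largest called changes in each direction, and the extremes of the 2 libraries that stand apart. Other members named in the text were picked after their values were seen.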

Additional observations from a re-analysis of the deposited data

Results flagged for a closer look

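In the larva, the heterozygote library 1 had a share of gene counts from ribosomal protein genes, 11.6%, that lay far below the nearest of the other 5 libraries. The gap was 0.634 of the range of the 6 libraries, with 0.625 as the critical value. At 8 h the wild type library 1 stood out in the same way at 5.46%, with a gap of 0.677 of the range. Such a gap is reached by chance in about 1 in 20 groups, but both libraries had been singled out from earlier results of these data, so the gaps describe them and are no independent test. The 40 h and adult libraries showed no such gap.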

How the results depend on the processing

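The counts of called members depended mostly on the larval heterozygote library 1 and the 8 h wild type library 1. For fits that leave out 1 library at a time or scale by total counts, the share of all genes called is not given here. The counts from those fits are therefore no result about the members. Without both, 61 members were called from the larva to 8 h in place of 13, 87 from 8 h to 40 h in place of 31, 4 for mutant against wild type in the larva in place of 0, 2 in the adult in place of 1, and 1 in place of 0 for mutant and for heterozygote against wild type at 8 h and at 40 h and for heterozygote against wild type in the adult. Leaving out 1 library at a time gave 9 to 74 calls from the larva to 8 h and 28 to 78 from 8 h to 40 h. It gave 0 to 1 for mutant against heterozygote and 0 to 7 for heterozygote against wild type in the larva. At 8 h it gave 0 to 76 for the mutant and 0 to 78 for the heterozygote against wild type. The first interactions gave 0 to 73 and 0 to 76, and mutant against wild type in the adult 0 to 0. The highest of these came without wild type library 2 at 8 h, except the 78 from 8 h to 40 h (without wild type library 1) and the larval ones (without heterozygote library 2), and a group then rests on 1 library assumed to vary like the others. RpS5b at the first step ranged from -0.7, its sign reversed without wild type library 2 at 8 h, to 2.24.

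Total-count scaling called 33 members from the larva to 8 h, where it shifted the median of all genes by -0.31. A fit of only the libraries compared called 3 there, 40 for mutant against wild type in the larva, 4 at 40 h, and 1 for heterozygote against wild type in the adult. DESeq2 called 6 and 4 at 8 h against wild type. Without the filter the adult mutant comparison called 0. Other counts, 270 in all, stayed within 1.5 times. The library numbers do not pair samples: deviations of same-numbered libraries correlated from -0.14 to 0.09. With the replicate number as a block, 12, 30 and 74 members were called at the 3 steps and 0 in the adult mutant comparison, where RpS15Ab (-0.54) no longer passed. The share of all genes is not given for the block either, so its counts are no result about the members. The effect of depth was not tested, and members under 3 CPM rest on few counts.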
